A study of Homo sapiens with 4 samples.

Results

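Transcripts of 31 receptor tyrosine kinases outside the ERBB and EPH families were followed in MM134 cells, an established line of lobular breast cancer. The genes were taken by symbol from a fixed list and all 31 were found among the 60675 genes of the tables. RNA sequencing was done on a line with HER2 L755S, a kinase domain substitution in the receptor encoded by ERBB2, and on a line with wild-type HER2 (HER2 WT). Each line had 2 libraries, numbered 1 and 2. All 4 came from cells deprived of estrogen over 7 days (5% charcoal-stripped serum, no phenol red), so no library of untreated cells was included. The labels do not state how HER2 was introduced or altered, whether a line is 1 clone, or whether its 2 libraries are separate cultures. The p-values therefore rest on a spread between libraries that may be purely technical.

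Receptor tyrosine kinases are single-pass membrane proteins. Binding of a ligand outside the cell brings receptor chains together, the kinase domains phosphorylate each other, and adaptors docked on the phosphorylated tails pass the signal to the MAPK, PI3K and phospholipase C pathways. Some members of the superfamily, among them PTK7 and RYK, have a kinase domain without known catalytic activity and act in WNT signalling. In luminal breast cancer the FGF receptors and the collagen receptor DDR1 are among the better known members, while the PDGF, KIT and VEGF receptors mainly mark stromal, blood and endothelial cells.

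The cells carried luminal transcripts in all libraries, and all 10 luminal epithelial markers were detected at a mean of at least 1 TPM (a level per transcript length, as a share of all transcripts). Of 14 leukocyte markers, 6 had no count in any library, and the summed level of the list was 1.58 and 1.10 TPM in HER2 L755S and 1.72 and 2.12 TPM in HER2 WT libraries. Of 10 endothelial markers 5 had no count in any library, among them PECAM1 and CDH5, and nearly all of the summed level (53.1 and 31.8 TPM in HER2 L755S, 46.7 and 18.2 TPM in HER2 WT) was EGFL7. The fibroblast list summed to 62.3 and 26.0 TPM in HER2 L755S and 85.4 and 43.1 TPM in HER2 WT libraries, nearly all of it COL1A1 and FBLN1. The basal list stayed between 1.24 and 1.79 TPM in all 4 libraries. Mitochondrial transcripts took 4.03% and 13.5% of the counts in HER2 L755S 1 and 2, against 4.40% and 8.83% in HER2 WT 1 and 2. TPM is a share of all transcripts, so a larger mitochondrial share can lower it for other genes. That share was highest in HER2 L755S 2, so TPM may be affected unevenly between the lines, which was not tested. The lines were compared on CPM (counts relative to the library total, scaled by TMM). The total estimated count per library was 27423247 to 31088422. ERBB2 stood at 2443 and 1203 CPM in HER2 L755S 1 and 2, against 1934 and 1936 CPM in HER2 WT 1 and 2. The lines overlapped, with a log2 fold change of -0.086 (SE 0.35, edgeR adjusted p = 0.998). In TPM it was 864 and 390 in HER2 L755S, against 671 and 820 in HER2 WT cells.

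The promoters of the 3 receptors whose difference passed the threshold (NTRK2, PTK7 and ROR1) and of FGFR4, the receptor with the highest mean TPM over the 4 libraries, are shown because the results turn on these genes. Each runs from 250 bases before to 50 bases after the first start listed by RefSeq on GRCh38.p14, on the plus strand, and capitals mark GC boxes (GGGCGG on either strand, overlaps counted).
NTRK2 promoter, chr9:84669056-84669355: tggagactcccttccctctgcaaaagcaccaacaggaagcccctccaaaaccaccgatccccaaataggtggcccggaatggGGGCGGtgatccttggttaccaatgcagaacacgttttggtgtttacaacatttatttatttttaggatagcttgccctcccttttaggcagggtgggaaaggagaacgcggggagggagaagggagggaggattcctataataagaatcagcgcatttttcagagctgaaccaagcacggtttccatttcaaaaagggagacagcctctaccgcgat
PTK7 promoter, chr6:43076064-43076363: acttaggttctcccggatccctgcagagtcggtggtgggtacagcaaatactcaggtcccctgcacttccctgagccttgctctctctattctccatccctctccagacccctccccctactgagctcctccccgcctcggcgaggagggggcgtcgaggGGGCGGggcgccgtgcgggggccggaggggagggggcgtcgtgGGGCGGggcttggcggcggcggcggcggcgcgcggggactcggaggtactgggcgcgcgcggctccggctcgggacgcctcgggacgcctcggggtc
ROR1 promoter, chr1:63773767-63774066: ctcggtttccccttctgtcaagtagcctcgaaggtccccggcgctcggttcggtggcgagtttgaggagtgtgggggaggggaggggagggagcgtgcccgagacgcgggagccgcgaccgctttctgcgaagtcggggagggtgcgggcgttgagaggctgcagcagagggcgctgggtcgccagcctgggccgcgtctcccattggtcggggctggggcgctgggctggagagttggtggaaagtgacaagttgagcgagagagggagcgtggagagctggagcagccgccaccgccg
FGFR4 promoter, chr5:177086665-177086964: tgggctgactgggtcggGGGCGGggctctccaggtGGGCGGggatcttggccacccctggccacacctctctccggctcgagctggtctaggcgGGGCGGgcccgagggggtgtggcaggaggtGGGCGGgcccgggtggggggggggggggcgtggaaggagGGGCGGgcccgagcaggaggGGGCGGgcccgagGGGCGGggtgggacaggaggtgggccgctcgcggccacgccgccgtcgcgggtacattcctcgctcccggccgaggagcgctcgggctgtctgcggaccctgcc
G and C made up 73.3% of the PTK7, 69.0% of the ROR1 and 78.7% of the FGFR4 window, all above the median of 58.7% over all promoters of this length, and the NTRK2 window lay below that median. A GC box was found 1 time in NTRK2, 2 times in PTK7, 7 times in FGFR4 and not in ROR1, and 45.0% of the 35116 promoter windows held at least 1. None of the 4 windows held the AP-1 motif TGANTCA or the TATA motif TATAAA (both strands searched), which occurred in 7.71% and 11.5% of all windows. The palindromic estrogen response element was also in none of the 4, and in 0.057% of all windows. Other starts are listed for NTRK2, PTK7 and FGFR4, and which start was used was not measured.

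Only a few of the receptors were expressed at more than a trace. Averaged over the 4 libraries, 11 of 31 reached 1 TPM and 6 reached 5 TPM. By line, 7 reached a mean of 1 TPM in HER2 L755S and 12 in HER2 WT cells, but the lines had equal numbers at the other thresholds, with 13 each at 0.5 TPM, 5 each at 5 TPM and 13 each at a mean of 1 CPM. FGFR4 and DDR1 together made up 89.8% and 85.9% of the summed receptor TPM in HER2 L755S 1 and 2, against 84.6% and 79.1% in HER2 WT 1 and 2. The other 29 receptors summed to 79.4 and 47.5 TPM in HER2 L755S, against 72.4 and 63.1 TPM in HER2 WT libraries. After FGFR4 and DDR1 the mean level over the libraries fell off through RYK, FGFRL1, TYRO3, PTK7 and MST1R, as the plot of receptor TPM by library shows.

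**Figure D1:**
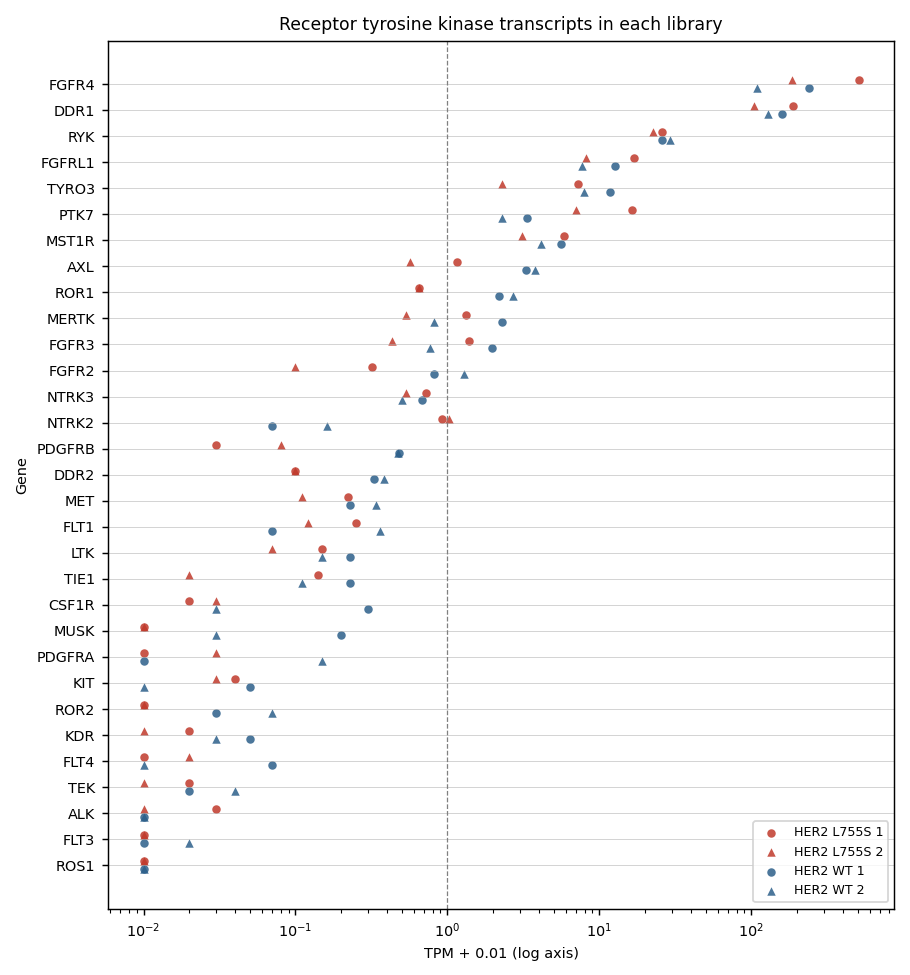
Level of each of the 31 receptors in TPM + 0.01 on a log axis, 1 point per library, with HER2 L755S in red and HER2 WT in blue, circles for libraries numbered 1 and triangles for those numbered 2; the dashed line marks 1 TPM. FGFR4 and DDR1 lie at 104 TPM or more in all libraries, and most receptors of stromal, blood and endothelial cells lie far below 1 TPM.

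By the quasi-likelihood test of edgeR, adjusted by Benjamini-Hochberg over every tested gene, NTRK2 and PTK7 rose and ROR1 fell in HER2 L755S compared with HER2 WT cells. These were 3 of the 17 receptors that passed the filter on low counts, while over the 16538 tested genes 1.69% were called, 0.738% higher and 0.949% lower. Of the 17 tested receptors, 8 had a positive and 9 a negative log2 fold change, with a median of -0.31 against 0.00 over all tested genes. The 2 libraries of HER2 L755S lay wholly above or below those of HER2 WT for 11 of the 17 (5 higher, 6 lower), and for 36.2% of all tested genes. With the replicate number as a block, 3 of the 17 were called higher and 4 lower, against 4.38% and 6.16% of all tested genes. A receptor could pass the filter through the line in which it was high, so these counts describe the 17 and not all 31.

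NTRK2 encodes TrkB, the receptor of the neurotrophins BDNF and NTF4 (ENSG00000148053, GRCh38 chromosome 9, 84668551 to 85027070, plus strand). It stood at 5.47 and 8.22 CPM (160 and 211 counts) in HER2 L755S 1 and 2, against 0.402 and 0.964 CPM (13 and 28 counts) in HER2 WT 1 and 2. Both HER2 L755S libraries were thus well above both HER2 WT libraries. The log2 fold change was 3.33 (SE 0.55), with 3.71 between the libraries numbered 1 and 3.07 between those numbered 2 (edgeR, Benjamini-Hochberg adjusted p = 0.0117). Per length the level stayed low, at 0.91 and 1.02 TPM in HER2 L755S and 0.06 and 0.15 TPM in HER2 WT cells. The mean transcript length that RSEM assigned to the gene was 7955 and 8303 bases in HER2 L755S and 8438 and 8352 bases in HER2 WT libraries. Kinase-bearing and truncated forms of TrkB are not separated in gene-level values.

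NTRK3, which encodes TrkC, the receptor of NTF3, did not pass the test. It stood at 1.20 and 2.38 CPM in HER2 L755S and 0.865 and 1.10 CPM in HER2 WT libraries, with a log2 fold change of 0.86 (SE 0.56, edgeR adjusted p = 0.782). The groups did not overlap, but the library HER2 L755S 1 lay close to HER2 WT 2. Of the neurotrophins, BDNF had 1 and 1 counts in HER2 L755S against 0 and 4 in HER2 WT libraries, and NTF3 had 1 count in all, in HER2 WT 1. NTF4 had 7 and 4 counts in HER2 L755S against 41 and 27 in HER2 WT libraries, a log2 fold change of -2.44 (SE 0.68) that did not pass (edgeR adjusted p = 0.121). Over the alternatives the adjusted p of NTF4 was 0.0229 to 0.606, passing with the replicate block and, at 0.0392, with no filter.

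PTK7, a co-receptor without known kinase activity in WNT and planar cell polarity signalling, is encoded on chromosome 6 (ENSG00000112655, 43076268 to 43161719, plus strand). It stood at 34.9 and 16.9 CPM (1022 and 434 counts) in HER2 L755S 1 and 2, against 5.93 and 3.79 CPM (192 and 110 counts) in HER2 WT 1 and 2. The libraries of the lines did not overlap, and within each line the library numbered 1 was the higher. The log2 fold change was 2.41 (SE 0.45), a fold of 5.33, with 2.56 and 2.15 in the libraries numbered 1 and 2 (edgeR, Benjamini-Hochberg adjusted p = 0.0221). In TPM it was 16.3 and 6.97 in HER2 L755S cells and 3.35 and 2.27 in HER2 WT cells. In HER2 L755S cells it was the most abundant of the 3 called receptors, while in HER2 WT 2 ROR1, at 2.70 TPM, was above it.

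ROR1, a receptor of WNT5A that is prominent in the embryo, lies on chromosome 1 (ENSG00000185483, 63774022 to 64181498, plus strand). It stood at 2.02 and 2.14 CPM (59 and 55 counts) in HER2 L755S 1 and 2, against 7.82 and 9.64 CPM (253 and 280 counts) in HER2 WT 1 and 2. The libraries of each line were close to each other and the lines were far apart. The log2 fold change was -2.07 (SE 0.41), with -1.95 and -2.16 in the libraries numbered 1 and 2 (edgeR, Benjamini-Hochberg adjusted p = 0.0312). Its paralog ROR2 had 0 and 0 counts in HER2 L755S and 2 and 5 counts in HER2 WT libraries and was not tested. RYK, another WNT-binding receptor, stood at 48.1 and 51.2 CPM in HER2 L755S and 40.6 and 50.3 CPM in HER2 WT libraries, overlapping between the lines, with a log2 fold change of 0.13 (SE 0.32, edgeR adjusted p = 0.998) that was -0.022 without HER2 WT 1. WNT5A, a ligand of the ROR receptors and RYK, had 26 and 47 counts in HER2 L755S and 17 and 18 in HER2 WT libraries, a log2 fold change of 1.24 (SE 0.62, edgeR adjusted p = 0.557).

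The log2 fold changes of NTRK2, PTK7 and ROR1 kept their sign when any single library was left out. Such a fit leaves 1 library in a line and takes that line's spread from the other line. Passing or failing in it therefore cannot show whether a call is robust, here and for the genes below. Their size depended on single libraries, and the log2 fold change of NTRK2 was 4.09 without HER2 WT 2 and 2.82 without HER2 WT 1. For PTK7 it was 1.80 when HER2 L755S 1 was left out and 2.84 when HER2 L755S 2 was, and for ROR1 it lay between -2.21 and -1.89. In windows of 5 Mb centred on each gene, the other coding genes had a median log2 fold change of 0.00 around NTRK2 (12 genes), 0.10 around PTK7 (54 genes) and -0.29 around ROR1 (17 genes). The neighbours of ROR1 were therefore lower on average as well, by less than ROR1 itself, and their part in its difference was not tested. No receptor on the list lies on chromosome 8 or 11.

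**Figure D2:**
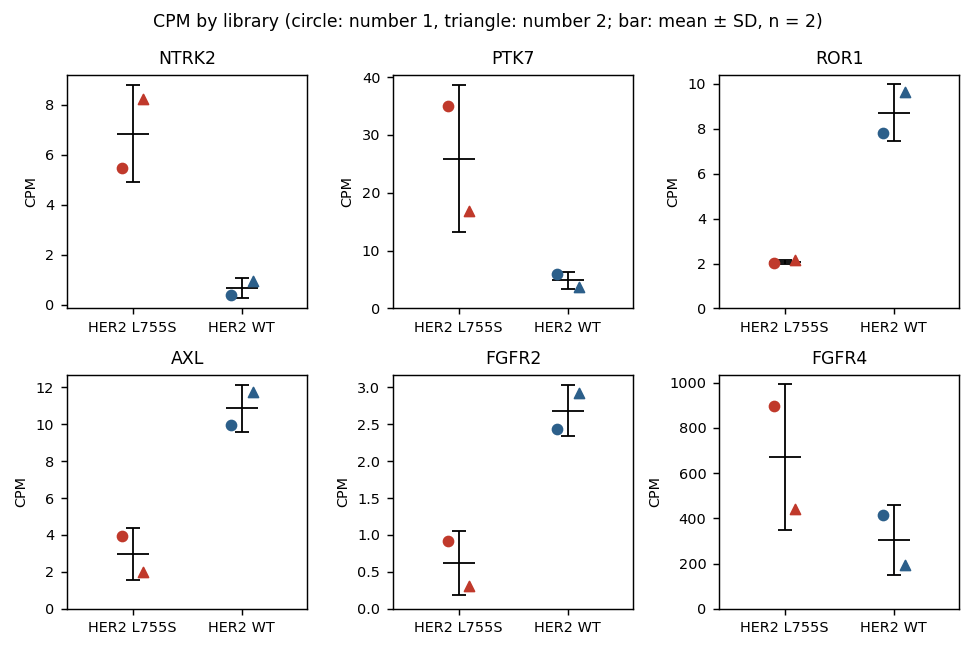
CPM of NTRK2, PTK7, ROR1, AXL, FGFR2 and FGFR4 in each library, with HER2 L755S in red at the left and HER2 WT in blue at the right of each panel; bars give the mean ± SD of 2 libraries. For all 6 genes the libraries of the lines do not overlap, and for FGFR4 the library HER2 L755S 2, at 442 CPM, lies close to HER2 WT 1, at 414 CPM.

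Among the FGF receptors FGFR4, which binds FGF19 with the co-receptor KLB, had the highest mean TPM on the list over the 4 libraries (ENSG00000160867, chromosome 5, 177086886 to 177098144, plus strand). It stood at 897 and 442 CPM in HER2 L755S 1 and 2, against 414 and 194 CPM in HER2 WT 1 and 2. Within each number HER2 L755S was about the same distance above HER2 WT on CPM, with log2 differences of 1.12 and 1.18. On log2(TPM + 0.1) the differences were 1.09 and 0.77. The libraries numbered 2 were lower than those numbered 1 in both lines. In HER2 WT 2, DDR1 was the more abundant of the pair, at 129 TPM against 109 TPM for FGFR4. Over the 4 libraries the log2 fold change was 1.14 (SE 0.43) and did not pass the test (edgeR, Benjamini-Hochberg adjusted p = 0.308). It passed without HER2 WT 1 and without HER2 L755S 2, at adjusted p = 0.0150 and 0.00427 and log2 fold changes of 1.78 and 1.55. Without HER2 WT 2 the adjusted p was 0.852 at a log2 fold change of 0.70, and without HER2 L755S 1 it was 0.771 at 0.54. With no filter on low counts it passed at 0.0178, and with the replicate number as a block at 0.000975. FGF19 had 0 and 1 counts in HER2 L755S against 3 and 1 in HER2 WT libraries. KLB stood at 1.88 and 1.44 CPM in HER2 L755S and 0.803 and 0.999 CPM in HER2 WT libraries (log2 fold change 0.88, SE 0.54, edgeR adjusted p = 0.730).

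FGFR1, a receptor of the same family that is not on the list, was the more abundant of the 2 in every library. Its level was 1.74 and 3.21 times that of FGFR4 in HER2 L755S 1 and 2, and 6.77 and 18.4 times in HER2 WT 1 and 2, as ratios of TPM within a library. FGFR4 was 36.4% and 23.7% of the summed TPM of FGFR1 to FGFR4 in HER2 L755S, against 12.9% and 5.14% in HER2 WT libraries. These ratios do not depend on how libraries are scaled, and their difference was not tested. FGFR1 itself stood at 2236 and 1798 CPM in HER2 L755S, against 4224 and 4357 CPM in HER2 WT libraries, without overlap. Its log2 fold change of -1.09 (SE 0.28) did not pass (edgeR adjusted p = 0.0939), but passed with the replicate number as a block (0.00415). The ratios therefore carry the differences of both genes and not of FGFR4 alone. In windows of 5 Mb, the other coding genes had a median log2 fold change of -0.73 around FGFR1 (18 genes) and 0.05 around FGFR4 (41 genes). The neighbours of FGFR1 were thus lower as well, and their part in its difference was not tested.

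FGFR2 and FGFR3, which bind FGFs of the mesenchyme and skeleton among others, were near the limit of expression. FGFR2 stood at 0.923 and 0.312 CPM (27 and 8 counts) in HER2 L755S and 2.44 and 2.93 CPM (79 and 85 counts) in HER2 WT libraries. Its groups did not overlap, and its log2 fold change of -2.10 (SE 0.60) did not pass in the 4 libraries but did without HER2 L755S 1, where it was -3.09 (edgeR adjusted p = 0.132 and 0.0114, and 0.0101 to 0.417 over all alternatives). FGFR3 stood at 2.56 and 1.29 CPM in HER2 L755S and 5.00 and 2.24 CPM in HER2 WT libraries, so that the lines overlapped (log2 fold change -0.91, SE 0.55). That value was -0.22 without HER2 WT 1 and -1.49 without HER2 L755S 1. FGFRL1, a family member that binds FGF but lacks the kinase domain, stood at 30.8 and 19.9 CPM in HER2 L755S and 24.9 and 17.5 CPM in HER2 WT libraries and overlapped too (0.26, SE 0.37, and -0.092 without HER2 L755S 1).

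Of FGF ligands, FGF17 was at 2.87 and 2.45 CPM in HER2 L755S and 12.1 and 5.85 CPM in HER2 WT libraries, a log2 fold change of -1.75 (SE 0.46, edgeR adjusted p = 0.0942) that passed without HER2 WT 2 at -2.17 (0.00452; over all alternatives 0.00188 to 0.533). FGF1, which binds all FGF receptors, had 13 and 11 counts in HER2 L755S and 1 and 1 in HER2 WT libraries and did not pass (edgeR adjusted p = 0.101, and 0.0358 to 0.611 over the alternatives). FGF7 stood at 2.39 and 3.51 CPM in HER2 L755S and 3.31 and 4.92 CPM in HER2 WT libraries. FRS2, the adaptor that docks on FGF receptors, stood at 25.0 and 33.6 CPM in HER2 L755S and 24.5 and 42.4 CPM in HER2 WT libraries (log2 fold change -0.19, SE 0.37).

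The TAM receptors AXL, TYRO3 and MERTK bind GAS6 on the surface of dying cells, and TYRO3 and MERTK also bind PROS1. All 3 had negative log2 fold changes and none passed the test in the 4 libraries. AXL (chromosome 19, 41219203 to 41261766, plus strand) stood at 3.97 and 1.99 CPM in HER2 L755S 1 and 2, against 9.95 and 11.8 CPM in HER2 WT 1 and 2. The lines did not overlap. Its log2 fold change was -1.86 (SE 0.44), with -1.32 and -2.56 in the libraries numbered 1 and 2 (edgeR, Benjamini-Hochberg adjusted p = 0.0641). It passed without HER2 WT 1 and without HER2 L755S 1, at adjusted p = 0.0122 and 0.00592 and log2 fold changes of -1.98 and -2.45, and with DESeq2 (adjusted p = 0.00411), over a range up to 0.237.

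TYRO3, the most abundant of the 3, stood at 10.5 and 5.41 CPM in HER2 L755S and 17.3 and 12.7 CPM in HER2 WT libraries (log2 fold change -0.91, SE 0.41, edgeR adjusted p = 0.471). MERTK stood at 2.12 and 0.701 CPM in HER2 L755S and 3.34 and 2.03 CPM in HER2 WT libraries (-0.92, SE 0.59), and HER2 L755S 1 overlapped HER2 WT 2. Its log2 fold change was -1.93 when HER2 L755S 1 was left out and -0.35 when HER2 L755S 2 was. Summed, the TAM receptors reached 9.66 and 3.34 TPM in HER2 L755S, against 17.35 and 12.49 TPM in HER2 WT libraries. A larger mitochondrial share, which was highest in HER2 L755S 2, can lower TPM, and the lines were compared on the CPM values above. The ligand gene GAS6 stood at 25.6 and 17.2 CPM in HER2 L755S and 26.8 and 16.0 CPM in HER2 WT libraries, so that it followed the replicate number and not the line, and PROS1 had at most 3 counts in a library.

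The collagen receptor DDR1 (chromosome 6, 30876421 to 30900156, plus strand) stood at 477 and 309 CPM in HER2 L755S and 379 and 282 CPM in HER2 WT libraries. The lines overlapped and the log2 fold change was 0.25 (SE 0.33, edgeR adjusted p = 0.974), and -0.10 without HER2 L755S 1. DDR2, a receptor of fibrillar collagens, stood at 0.513 and 0.935 CPM in HER2 L755S and 1.42 and 2.17 CPM in HER2 WT libraries, without overlap (log2 fold change -1.31, SE 0.58, edgeR adjusted p = 0.449). COL1A1, whose product is a ligand of both, stood at 114 and 58.5 CPM in HER2 L755S and 100.5 and 51.0 CPM in HER2 WT libraries.

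MST1R, the receptor of macrophage stimulating protein, stood at 6.39 and 4.17 CPM in HER2 L755S and 7.78 and 5.34 CPM in HER2 WT libraries, and the lines overlapped (log2 fold change -0.31, SE 0.42, edgeR adjusted p = 0.976). Its ligand gene MST1 stood at 40.9 and 40.5 CPM in HER2 L755S and 47.4 and 37.4 CPM in HER2 WT libraries. MST1 has near-identical pseudogene copies, and reads could have been divided among them, so its level is uncertain. MET, the receptor of HGF, had 13 and 16 counts in HER2 L755S against 34 and 26 in HER2 WT libraries (log2 fold change -0.87, SE 0.61, edgeR adjusted p = 0.824), and HGF had 2 counts in all, in HER2 L755S 2.

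**Figure D3:**
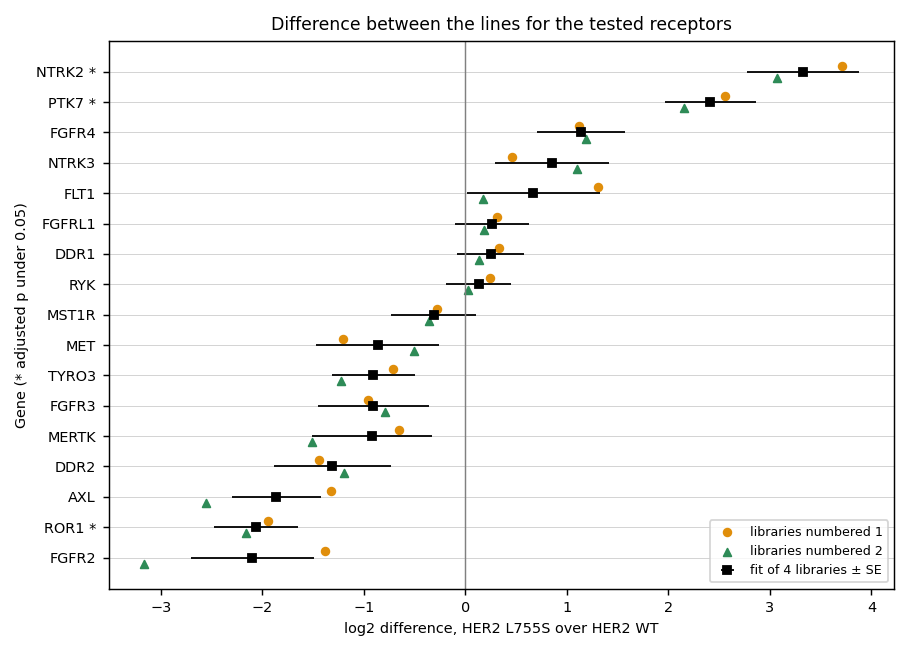
Log2 difference of HER2 L755S over HER2 WT for the 17 tested receptors, as the fit of 4 libraries with its SE (black squares), and as log2 CPM differences between libraries numbered 1 (orange circles) and numbered 2 (green triangles). NTRK2 and PTK7 lie above 2 and ROR1 near -2 in both numbers.

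Of the VEGF receptors only FLT1 passed the filter, with 23 and 19 counts in HER2 L755S and 10 and 19 in HER2 WT libraries (log2 fold change 0.67, SE 0.66, edgeR adjusted p = 0.930). Without HER2 WT 2 the value was 1.31, and without HER2 WT 1 it was 0.22. KDR and FLT4, which are mainly endothelial, had at most 7 counts in a library. Their ligands were more abundant. VEGFA stood at 159 and 112 CPM in HER2 L755S and 63.4 and 66.5 CPM in HER2 WT libraries, without overlap (log2 fold change 1.06, SE 0.32), and did not pass (edgeR adjusted p = 0.158, and 0.00217 to 0.585 over the alternatives). PGF, which binds FLT1, stood at 10.8 and 11.6 CPM in HER2 L755S and 45.1 and 24.7 CPM in HER2 WT libraries (log2 fold change -1.64, SE 0.38). It missed the threshold in the 4 libraries (edgeR adjusted p = 0.0607) and passed without HER2 WT 2 at -1.99 (0.00416; over all alternatives 0.000265 to 0.323). VEGFC, a ligand of FLT4, had 5 and 0 counts in HER2 L755S and 34 and 36 in HER2 WT libraries (edgeR adjusted p = 0.0895, 0.00170 without HER2 L755S 1, and 0.00108 to 0.189 over all alternatives). VEGFB stood at 22.3 and 15.4 CPM in HER2 L755S and 18.8 and 9.47 CPM in HER2 WT libraries.

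The other 14 receptors did not pass the filter, with at most 8 counts in a library and 24 over the 4. Besides ROR2, KDR and FLT4 these were PDGFRA, PDGFRB, KIT, CSF1R and FLT3 of the PDGF receptor family, the angiopoietin receptors TEK and TIE1, ALK, LTK, ROS1 and the agrin receptor chain MUSK. ROS1 had no count in any library, where 3 counts would stand at 0.0927 to 0.117 CPM, so that its 0 counts allow a level up to there. The receptors of this group with the most counts were LTK, with 5 and 5 in HER2 L755S and 6 and 8 in HER2 WT libraries, and TIE1, with 8 and 1 against 6 and 7. KIT had 3 and 2 counts in HER2 L755S and 3 and 0 in HER2 WT libraries. Ligands of some of them were present, and KITLG stood at 7.56 and 11.5 CPM in HER2 L755S and 9.30 and 15.9 CPM in HER2 WT libraries. PDGFB stood at 115 and 91.7 CPM in HER2 L755S and 83.9 and 73.7 CPM in HER2 WT libraries. In these bulk libraries a small number of expressing cells and little RNA per cell cannot be told apart.

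Of 45 ligand genes 19 passed the filter and none was called, against 1.69% of all tested genes. They had 7 positive and 12 negative log2 fold changes and a median of -0.06. VEGFA, MST1 and AGRN had the highest mean TPM, as the plot of ligand levels shows. AGRN, a ligand of the MUSK complex, stood at 61.3 and 27.8 TPM in HER2 L755S and 58.6 and 30.5 TPM in HER2 WT libraries.

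**Figure D4:**
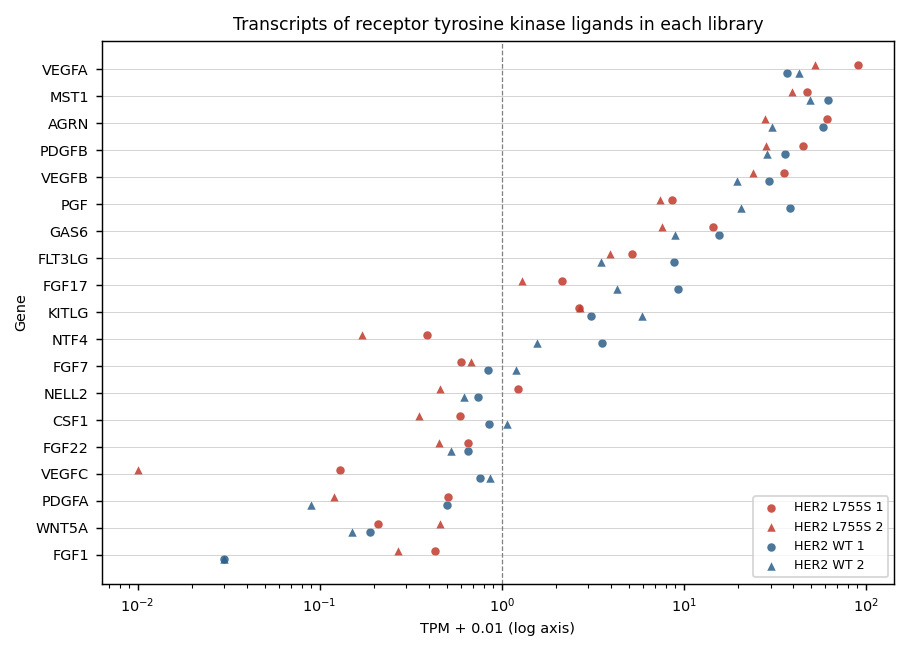
Level of the 19 tested ligand genes in TPM + 0.01 on a log axis, 1 point per library, with HER2 L755S in red and HER2 WT in blue, circles for libraries numbered 1 and triangles for those numbered 2. VEGFA lies higher in both HER2 L755S libraries, and PGF, FGF17, NTF4 and VEGFC lie lower in both, none past an adjusted p of 0.05.

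Of 36 genes for co-receptors, turnover and chaperones 33 passed the filter, of which 2 rose and 1 fell, with a median log2 fold change of -0.01. Over all tested genes 0.738% were called higher and 0.949% lower. NRP1, a co-receptor of VEGF and semaphorins, stood at 2.29 and 2.88 CPM in HER2 L755S and 0.309 and 0.379 CPM in HER2 WT libraries (log2 fold change 2.90, SE 0.57, edgeR adjusted p = 0.0286), and its call was lost without HER2 WT 1 (0.0614), the highest of its alternatives, which began at 0.000168. FLRT3, a membrane partner of FGF receptors, rose to 8.82 and 8.02 CPM in HER2 L755S, against 1.08 and 1.14 CPM in HER2 WT libraries (log2 fold change 2.92, SE 0.43, edgeR adjusted p = 0.00729). FLRT3 lies opposite to MACROD2 on the other strand, whose reads may be mixed in since the strand setting is not known. DOK7, the cytoplasmic activator of MUSK, fell to 1.95 and 2.34 CPM in HER2 L755S, against 24.4 and 16.0 CPM in HER2 WT libraries (log2 fold change -3.24, SE 0.41, edgeR adjusted p = 0.00391). MUSK itself had no count in HER2 L755S and 1 and 1 in HER2 WT libraries. The chaperone genes HSP90AA1, HSP90AB1 and CDC37, on which many kinases depend, were the most abundant of the list.

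Of 45 adaptor and proximal signalling genes 44 were matched and 41 passed the filter. Only FYN was called, lower in HER2 L755S, with a median of -0.06 for the list. Of all tested genes 1.69% were called in either direction, and 0.949% of all tested genes were called lower in HER2 L755S. FYN, a kinase of the SRC family, stood at 6.12 and 5.61 CPM in HER2 L755S and 17.1 and 19.9 CPM in HER2 WT libraries (log2 fold change -1.66, SE 0.36, edgeR adjusted p = 0.0432). Its call was lost at adjusted p = 0.0907 without HER2 WT 2, at 0.0608 without HER2 L755S 1 and at 0.112 without HER2 L755S 2, and also with limma-voom (0.0522), and the alternatives began at 0.000147. GAB2 and IRS2, genes of docking proteins, missed the threshold at log2 fold changes of -1.54 and -1.74 (edgeR adjusted p = 0.0508 and 0.0602). GAB2 passed without HER2 WT 1 (0.0289) and without HER2 L755S 1 (0.0251), over a range of 0.000106 to 0.271, and was called with limma-voom (0.0455) where FYN was not. IRS2 passed with DESeq2 (0.00627), with no filter (0.00940) and with the replicate block (0.00115), and reached 0.129 at most. GRB2, GRB10 and PLCG1, which bind phosphorylated receptor tails, had the highest mean TPM of the list, at 255, 96.5 and 89.8 TPM in HER2 L755S and 289, 98.9 and 85.9 TPM in HER2 WT cells.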

How the data were processed

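RNA sequencing libraries of MM134 cells, 2 each of HER2 L755S and HER2 WT, were grouped by their titles. Per the file headers, the deposited tables are RSEM output in which the authors estimated an expected count, a TPM and an FPKM for each gene; the FPKM was not used. The deposited tables also give a mean transcript length for each gene. STAR, edgeR and GRCh38 are named, per the submitters' processing notes, with no version or role. The annotation release and the strand setting are not given in the sources used here. Both tables of libraries numbered 2 are named as merged, without a statement of which runs were joined, and both of libraries numbered 1 are not.

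Expected counts were rounded. Of 60675 genes 16538 passed filterByExpr of edgeR 4.0.16 in R 4.3.3. Libraries were scaled by TMM (factors 0.937 to 1.04) and compared with glmQLFit and glmQLFTest (two-sided, no term for the replicate number, Benjamini-Hochberg over all tested genes, threshold 0.05). SE is the log2 fold change divided by the square root of F. Differences within a replicate number are log2 CPM with a prior count of 0.5. Alternatives used DESeq2 1.42.0, limma 3.58.1, other scalings, filters and thresholds, a replicate block, no mitochondrial genes, and leaving out each library. The fits were also run on simulated counts drawn independently for each library. Those counts lack the variation shared by libraries of the same number, so that run does not bear on it. Gene positions come from GENCODE 29 (GRCh38), which holds all 31 receptors; the windows used 10843 coding genes of at least 5 CPM, and at least 10 in a window. Counting limits cover counting error only.

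All 31 receptors are accounted for. Values in every library are given for those with a mean of at least 1 TPM in either line, or called with or without the block; of the 8 other lists (177 of 178 symbols matched), called genes, the 3 most abundant and the ligands of described receptors were named. Values of some further genes were added after they were seen. The members and lists were chosen with earlier results of these data known.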

Additional observations from a re-analysis of the deposited data

How the results depend on the processing

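With 2 libraries a line, a fit without a library takes the spread of its line from the other, so its calls cannot show that a result is robust. NTRK2, PTK7 and ROR1 were called in every fit listed in the processing; at a threshold of 0.01 none of them was, so higher and lower receptors were 0 and 0. The count of lower receptors was 2 with DESeq2, 3 with no filter, and 1 to 3 without single libraries, and that of higher receptors was 2 to 3 without single libraries. Calls over all genes (122 higher, 157 lower) were 276 and 309 with DESeq2, 328 and 431 with no filter, 49 and 49 at 0.01, and 160 to 220 and 184 to 328 without single libraries.

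The labels do not say what the replicate number stands for, but deviations from the line means of libraries with the same number correlated across 11473 genes (r = 0.649). With the replicate number as a block the calls were 725 higher and 1018 lower over all genes (10.5% of tested genes), 3 and 4 among receptors (FGFR4, FGFR2, AXL and TYRO3 added, at edgeR adjusted p = 0.000975, 0.0113, 0.000762 and 0.0148), 2 and 4 among ligands, 6 and 3 among co-receptors, 3 and 3 among adaptors, and 1 lower each among luminal, fibroblast and endothelial markers.

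Higher and lower ligands were 1 and 2 with DESeq2, lower ones 4 with no filter and 0 to 2 without single libraries. Higher co-receptors were 1 at 0.01 and 1 to 2 without single libraries. Higher adaptors were 1 with no filter and 0 to 1 without single libraries; lower ones were 2 with size factors of DESeq2, with 50 counts in 2 libraries and without mitochondrial genes, 3 with DESeq2 and with no filter, 0 at 0.01, and 0 to 2 without single libraries. One luminal marker, ESR1, was lower with no filter, and 0 to 1 without single libraries; fibroblast markers were 0 to 1 higher and 0 to 1 lower. Receptors expressed were 6 at a mean of 5 TPM over all libraries and 5 in HER2 WT, against 11 and 12 at 1 TPM. The lines differed in this count at 1 TPM (7 in HER2 L755S, 12 in HER2 WT) and at none of the other thresholds, with 13 each at 0.5 TPM, 5 each at 5 TPM and 13 each at 1 CPM.

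Without single libraries the log2 fold change was -0.092 to 0.53 for FGFRL1, -0.10 to 0.52 for DDR1 (both lowest without HER2 L755S 1) and -0.022 to 0.31 for RYK (lowest without HER2 WT 1); the cause was not tested. On log2(TPM + 0.1) the differences of NTRK2 were 2.66 and 2.16, those of PTK7 2.25 and 1.58 and those of ROR1 -1.62 and -1.92 in the libraries numbered 1 and 2. On that scale the difference within a number changed sign for 4 receptors, to 0.079 for MST1R in the libraries numbered 1 and to -1.10 for FLT1, -0.32 for DDR1 and -0.36 for RYK in those numbered 2.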

Other observations

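The ratio of PTK7 to ROR1, which are counted in the same library and so share its scaling, was 25.5 and 10.9 in HER2 L755S 1 and 2, against 1.54 and 0.841 in HER2 WT 1 and 2 (TPM over TPM). PTK7 was called higher and ROR1 lower in these same libraries, so this difference follows from those calls and adds no separate evidence. TYRO3 made up 74.4% and 67.7% of the TAM receptor TPM in HER2 L755S and 68.1% and 63.7% in HER2 WT libraries.

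The mean transcript length that RSEM assigned to a gene was close to even across libraries for FGFR4, at 2493 and 2621 bases in HER2 L755S and 2515 and 2488 bases in HER2 WT libraries. For MST1R it was 1619 and 1579 bases in HER2 L755S and 2071 and 1859 bases in HER2 WT libraries, without overlap. For ROR1 it was 4292 and 3599 bases in HER2 L755S and 4960 and 4747 bases in HER2 WT libraries, also without overlap. For PTK7 it was 2980 and 2665 bases in HER2 L755S and 2559 and 2338 bases in HER2 WT libraries, again without overlap. For NTRK3 it varied from 2380 to 4804 bases within HER2 L755S and from 1926 to 3080 bases within HER2 WT. These lengths rest on the isoform estimates of RSEM, whose errors are not in the tables, and they were not tested.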
